A study of Homo sapiens with 414 samples.

Results

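Amiodarone, an iodinated antiarrhythmic drug, was given to H1-NPC, neural progenitor cells made from H1, an embryonic stem cell line, for up to 39 days. All 11 libraries labelled Amiodarone were taken; the series holds these, 148 libraries of non-toxic compounds and 255 of other toxic compounds. They came from days 1, 2, 3, 4, 6, 8, 10, 15, 21, 27 and 39 of exposure, with 1 well lysed each day. The dose was 1 µg/ml, started when the cells were seeded in medium without FGF2, and the labels class the compound as toxic. The controls were the 148 libraries of the 16 compounds labelled non-toxic, compared within each day, 7 to 16 libraries a day. These compounds were Acetaminophen, Amoxicillin, Aspirin, Ficoll 400, Fructose, Glucosamine, Glycerol, Glyphosate, Ibuprofen, Naproxen sodium, PEG 3350, PVP, Saccharin, Sorbitol, Sucrose and 0.1% DMSO. DMSO entered as 1 compound among them, since no label says which compounds it carried. The cells of every group were 1 line, and nothing in the labels says that wells came from separate thaws, so p-values measure the spread between these wells. The other 255 libraries, of 28 further toxic compounds, served only for a side-by-side view.

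Expression is given as TPM, a transcript's share of its library's RNA after division by transcript length. Differences are Amiodarone minus the non-toxic compounds on the log2(TPM + 1) scale, which understates changes of genes near 1 TPM. A gene is said to have risen or fallen where limma, fitted to 16318 genes with day as a factor, gave an adjusted p under 0.05. The days were split into an early window, days 1 to 6 (5 Amiodarone and 79 non-toxic libraries), and a late window, days 8 to 39 (6 and 69 libraries). The late window was fitted again without days 15 and 21 (4 and 51 libraries).

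Amiodarone is a cationic amphiphilic drug, a class known to collect in lysosomes, where it slows the release of cholesterol and the breakdown of phospholipids. Cells that sense little cholesterol in the endoplasmic reticulum release SREBP transcription factors, which raise the enzymes of cholesterol and fatty acid synthesis. Cells rich in oxysterols use the LXR receptors instead, which raise the pumps that export cholesterol. Developing neural cells make their own cholesterol, and several steps of that pathway are named in human malformation syndromes.

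The Amiodarone libraries of days 15 and 21 stood apart from the controls of those days by transcript length. The length trend, the change in log2 deviation for each doubling of transcript length, was -0.35 on day 15 and -0.47 on day 21. Non-toxic libraries of those days lay between -0.027 and 0.0195, while the other toxic libraries had medians of -0.099 and -0.29. On the other 9 days the Amiodarone trend was between -0.077 and 0.0395, which on days 1, 2, 3, 4 and 39 was still outside the control range of that day. One control library, Ibuprofen on day 8, had a trend of -0.71, and the lowest control library of day 10 was at -0.12. Without the Ibuprofen compound, the genes called late without days 15 and 21 numbered 795 in place of 77, of 16318 tested. In the late window, the genes that fell had a median transcript length of 5482 nucleotides and those that rose 2144, against 3538 for all genes tested. Results that include days 15 and 21 are given with and without them.

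**Figure D1:**
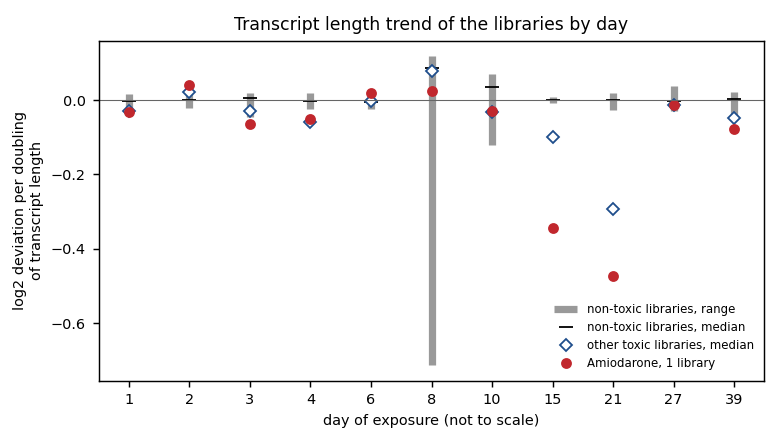
Transcript length trend by day of exposure: for each library, how its log2(TPM + 1) difference from the controls of that day changes with each doubling of length. Red points are the single Amiodarone libraries, grey bars the range of non-toxic libraries with the median as a black dash, and open diamonds the median of other toxic libraries; Amiodarone reached -0.35 on day 15 and -0.47 on day 21.

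The cultures carried RNA of neural progenitors and neurons, and RNA of other cell types beside it. The 12 neural progenitor markers summed to 3926 to 6395 TPM in the Amiodarone libraries and the 12 pan-neuronal markers to 3486 to 10370 TPM. Microglial markers were near 0, with a sum of at most 0.98 TPM in any Amiodarone library. Pluripotency markers summed to 8.69 to 54.5 TPM, against 8.58 to 62.8 TPM in the controls. Astrocyte markers summed to 469 to 5575 TPM, against 199 to 5899 TPM in the controls. Oligodendrocyte lineage markers summed to 31.5 to 184.8 TPM and endothelial markers to 4.19 to 19.3 TPM under Amiodarone. The 17 mesenchymal and matrix markers were abundant in both groups, at 1214 to 11830 TPM against 255.1 to 10610 TPM, and are taken up below.

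Genes of cholesterol synthesis were higher from the first day on. In days 1 to 6, 8 of 10 genes of the mevalonate pathway to squalene rose and none fell, with a median difference of 0.25. All 11 genes from squalene to cholesterol rose, with a median of 0.21. Across all genes tested, 4.23% rose and 9.57% fell in this window, and the median difference was -0.02. The 2 members not called were PMVK and GGPS1, at -0.03 ± 0.04 and -0.04 ± 0.05 (log2 difference ± SE). The 2251 early calls over all genes became 1350 without day 4 and 1455 without day 3. With DMSO as the only control, 1 library a day, no early call was left by limma.

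FDPS makes farnesyl pyrophosphate, the branch point to sterols and to protein prenylation. Its level on days 1, 2, 3, 4 and 6 was 574, 598, 658, 640.5 and 576 TPM under Amiodarone. The non-toxic means of those days were 513, 514, 467, 491 and 491 TPM. Amiodarone was above the highest non-toxic library on 5 of 5 days, and FDPS rose by 0.30 ± 0.03 (adjusted p = 2.18e-15). MVD decarboxylates mevalonate pyrophosphate, the last step before the isoprenoid units. It stood at 192, 208, 297, 305 and 419.5 TPM, against non-toxic means of 147, 197, 186, 230.5 and 292 TPM. MVD was above every non-toxic library on 4 of 5 days, day 2 being within their range, and rose by 0.41 ± 0.05 (adjusted p = 1.2e-10).

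LSS folds oxidosqualene into lanosterol, the first sterol of the pathway. It was at 287, 278, 358, 374 and 421 TPM, against 246, 256, 255, 276 and 288 TPM on average in the controls. No early day overlapped the control range, and the difference was 0.36 ± 0.03 (adjusted p = 3.7e-14). HMGCS1, the HMG-CoA synthase early in the pathway, rose by 0.32 ± 0.02, and DHCR7, which makes cholesterol from 7-dehydrocholesterol, by 0.31 ± 0.03. SC5DL, a sterol desaturase, rose by 0.19 ± 0.04. These are changes of 1.1 to 1.3 times, small beside those of other genes below, yet outside the control range on 3 to 5 of the 5 days for each of the 19 genes that rose.

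**Figure D2:**
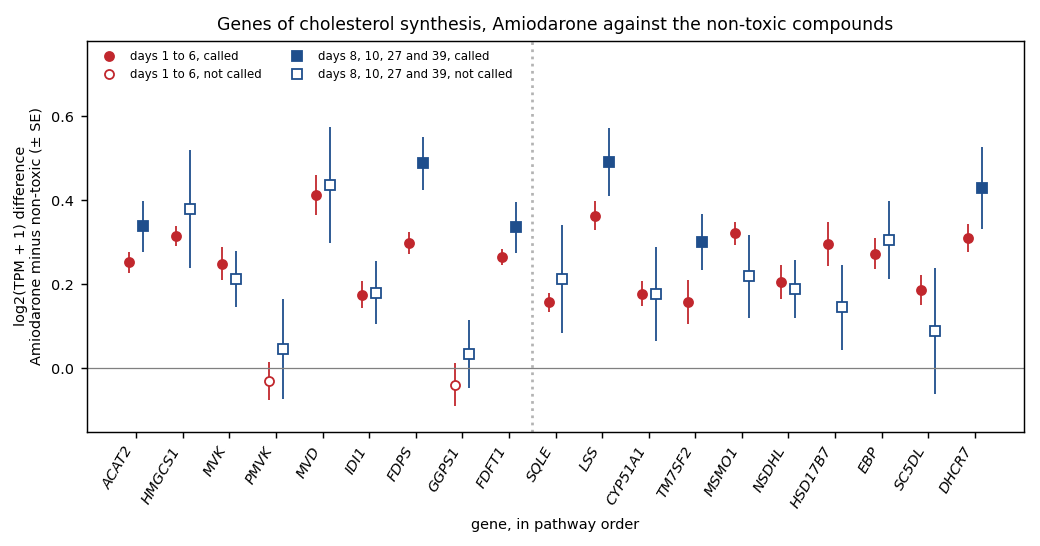
Log2(TPM + 1) difference between Amiodarone and the non-toxic compounds, with its standard error, for 19 genes of cholesterol synthesis in pathway order; the dotted line parts the mevalonate genes from those after squalene. Red circles are days 1 to 6 and blue squares days 8, 10, 27 and 39, filled where the gene was called: 17 early and 6 late.

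The promoters of the genes that rose together are shown for 3 enzymes, because the known sterol promoters pair an SREBP site with a CCAAT box, the letters bound by NF-Y. The windows run from 250 bases before to 50 after the RefSeq start site on GRCh38.p14, written 5′ to 3′ on the gene's strand, with CCAAT and its reverse complement ATTGG in capitals. FDPS is read from chr1:155308616-155308915 (plus strand), MVD from chr16:88663042-88663341 (minus strand) and LSS from chr21:46228725-46229024 (minus strand).
FDPS: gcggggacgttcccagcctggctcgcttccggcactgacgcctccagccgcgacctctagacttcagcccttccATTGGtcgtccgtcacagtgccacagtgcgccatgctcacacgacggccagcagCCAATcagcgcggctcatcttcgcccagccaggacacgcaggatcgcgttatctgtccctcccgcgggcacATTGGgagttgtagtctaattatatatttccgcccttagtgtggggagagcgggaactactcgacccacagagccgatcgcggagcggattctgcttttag
MVD: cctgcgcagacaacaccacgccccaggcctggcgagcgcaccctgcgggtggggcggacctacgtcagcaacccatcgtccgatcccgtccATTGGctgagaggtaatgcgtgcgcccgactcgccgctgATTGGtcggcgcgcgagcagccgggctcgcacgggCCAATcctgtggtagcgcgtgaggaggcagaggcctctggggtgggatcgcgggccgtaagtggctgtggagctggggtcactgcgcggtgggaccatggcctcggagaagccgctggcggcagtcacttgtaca
LSS: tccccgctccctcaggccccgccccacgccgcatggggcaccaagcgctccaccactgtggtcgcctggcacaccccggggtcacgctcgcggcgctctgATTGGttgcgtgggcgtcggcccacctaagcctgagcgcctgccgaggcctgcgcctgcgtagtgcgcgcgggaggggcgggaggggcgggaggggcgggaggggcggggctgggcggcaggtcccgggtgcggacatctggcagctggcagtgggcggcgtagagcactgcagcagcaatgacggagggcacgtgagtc
FDPS and MVD each hold 3 CCAAT boxes and LSS holds 1. Of 16 genes of both sterol lists with a promoter in the table, 12 (75%) hold CCAAT on either strand, beside 35.7% of all 27305 promoters. The longer sterol regulatory element TCACNCCAC was found in 0 of the 16 and in 1.15% of all promoters. Its inner letters CACNCCA were found in 6 (37.5%), MVD among them, beside 17.4% of all promoters. These are descriptions of letters in a window, not of binding.

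From day 8 on fewer genes of the pathway passed the test, which by itself does not show a smaller difference. In the late minus early difference without days 15 and 21, FDPS (0.19 ± 0.06), LSS (0.13 ± 0.07) and MVD (0.02 ± 0.12) were not called. Some genes of the pathway lay below 0 there, such as SC5DL (-0.10 ± 0.13), also not called. Over all 6 late days, 5 of 10 mevalonate genes and 7 of 11 later genes rose and none fell, where 6.32% of all genes rose and 16.5% fell. Without days 15 and 21, 3 and 4 of them rose (ACAT2, FDPS and FDFT1 in the first list, with LSS, TM7SF2 and DHCR7 among those of the second), where 0.331% of all genes rose and 0.141% fell. FDPS was at 634, 505, 342 and 304 TPM on days 8, 10, 27 and 39, against non-toxic means of 427, 372, 301 and 181 TPM. It was above every non-toxic library on all 4 days, on day 27 by a small margin (highest control 331 TPM), and rose by 0.49 ± 0.06 (adjusted p = 1.48e-06). On days 15 and 21 it was at 399.9 and 415.5 TPM, against 275.5 and 309.5 TPM.

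MVD, at 0.44 ± 0.14 without days 15 and 21, was not called there (adjusted p = 0.187), and its highest day 8 control, at 946.5 TPM, was above the Amiodarone value of 495.5 TPM. That control was Ibuprofen, and without this compound MVD was called at 0.48 (adjusted p = 6.26e-05). HMGCS1 (0.34), MVK (0.23) and EBP (0.34) were among the others then called. In all, 12 of the 21 sterol genes were called without Ibuprofen, in place of 7. Calls over all genes also rose in the fit without Ibuprofen, by the counts given with the length trend. LSS rose by 0.49 ± 0.08. The calls for DHCR7 and TM7SF2 were lost when day 8 or day 39 was left out, with differences of 0.32 and 0.42 for DHCR7 and 0.23 and 0.31 for TM7SF2. DHCR7 also lost its call without day 10 (0.43).

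The size of the sterol difference varied by day. Taken as the median deviation of the 21 genes, it was 0.20 to 0.32 in the early window, 0.55 on day 8 and 0.31 on day 10. It was 0.25 on day 15, 0.01 on day 21, 0.08 on day 27 and 0.22 on day 39. Days 21 and 27 were inside the range of the non-toxic libraries and the other 9 days were above it. Summed, the 21 genes reached 6662 TPM on day 8, against 4064 to 4781 TPM in the controls.

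**Figure D3:**
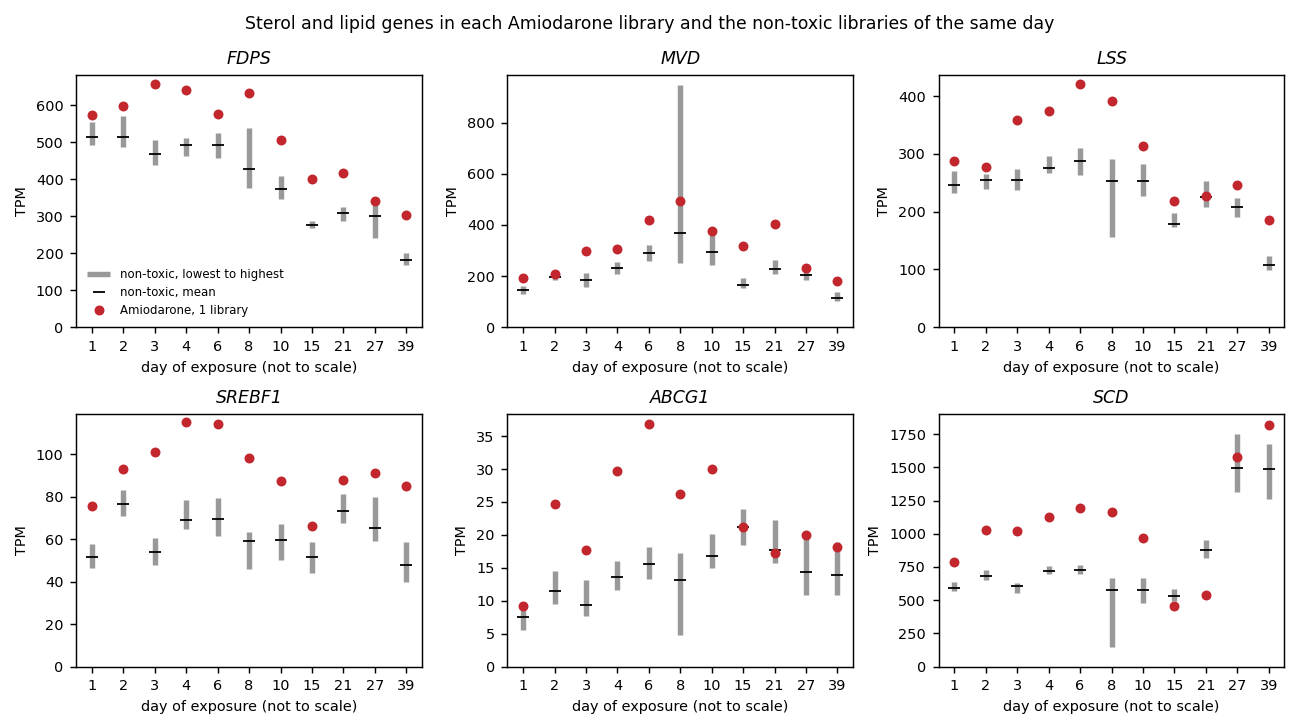
TPM by day of exposure for 6 sterol and lipid genes: red points are the single Amiodarone library of each day, grey bars run from the lowest to the highest non-toxic library, and black dashes are the non-toxic mean. FDPS and SREBF1 lie above the controls on all 11 days, while SCD falls below them on days 15 and 21; on day 8 the ends of the long bars of MVD, LSS, ABCG1 and SCD are 1 Ibuprofen library.

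SREBF1, which encodes SREBP1 and is itself an LXR and SREBP target, was at 75.5, 93.2, 101, 115 and 114 TPM in the early days. The control means were 51.4, 76.5, 53.9, 69.2 and 69.7 TPM, and no day overlapped. It rose by 0.63 ± 0.05 early (adjusted p = 4.6e-19) and by 0.65 ± 0.08 late without days 15 and 21 (adjusted p = 1.25e-07). INSIG1, the sterol-sensing anchor of SREBP, rose by 0.46 ± 0.03 early. The sterol carrier STARD4 rose by 0.34 ± 0.05. Of the 12 genes of SREBP control and lipoprotein uptake, 5 rose and 2 fell early, where 4.23% of all genes rose and 9.57% fell. The 2 that fell were the SREBP proteases MBTPS1, by 0.08 ± 0.03, and MBTPS2, by 0.21 ± 0.05. Late without days 15 and 21, SREBF1 alone of the 12 was called; INSIG1 was at 0.48 ± 0.14 (adjusted p = 0.159).

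Fatty acid genes under SREBP1 rose as well, 10 of 13 early with a median of 0.18, beside 4.23% of all genes. SCD, the stearoyl-CoA desaturase that makes oleate, was at 787.5, 1031, 1019, 1127 and 1198 TPM, against control means of 592, 683, 610.1, 721 and 727 TPM. It was above every control on 5 of 5 days and rose by 0.62 ± 0.02 (adjusted p = 5.3e-38). FADS2, the delta-6 desaturase, rose by 0.33 ± 0.02 early and by 0.49 ± 0.10 late without days 15 and 21, a call lost without day 8 (0.41). ACSS2, the acetate-activating enzyme, was the other member called in both (0.39 ± 0.05 and 0.33 ± 0.08). On days 15 and 21, SCD was at 454 and 537 TPM, below the lowest control of 493 and 815.5 TPM. Without them it was at 0.56 ± 0.17 (adjusted p = 0.154), and leaving out Ibuprofen as well gave a call for SCD (0.51, adjusted p = 3.31e-05) and for FASN (0.49, adjusted p = 3.76e-07).

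Of 9 LXR genes, 4 rose early (ABCG1, ABCA1, LPCAT3 and APOE) and none fell, where 4.23% of all genes rose and 9.57% fell. ABCG1, a cholesterol export pump, was at 9.23, 24.6, 17.6, 29.8 and 36.8 TPM early, against control means of 7.59, 11.5, 9.28, 13.7 and 15.6 TPM. Day 1 was within the control range and the other 4 days were above it, with a difference of 0.89 ± 0.08 (adjusted p = 7.8e-14). Late without days 15 and 21 it was 0.67 ± 0.15 (adjusted p = 0.022), a call lost when day 8, 10 or 27 was left out (0.55, 0.62 and 0.73). ABCA1, the related pump that loads apolipoproteins, rose by 0.42 ± 0.07 early, and LPCAT3, which remodels phospholipids, by 0.26 ± 0.05. APOE, the main lipoprotein of brain, was at 123, 72.7, 119, 65.6 and 81.6 TPM early, against means of 84.7, 63.05, 41.2, 25.7 and 37.0 TPM, with only day 2 inside the control range. It rose by 0.94 ± 0.10 early and stood at 0.11 ± 0.17 late without days 15 and 21, and the windows differed by -0.83 ± 0.18 (adjusted p = 0.00227).

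Lysosomal genes showed smaller rises in the early window. Of 27, 11 rose and 1 fell, with a median of 0.12, where 4.23% of all genes rose and 9.57% fell. Late without days 15 and 21 none of the 27 passed limma (lowest adjusted p = 0.118). NPC2, which hands cholesterol out of the lysosome, was at 265, 207, 187, 166 and 153 TPM, against 202, 164, 134, 121 and 111 TPM. It was above every control on 5 of 5 days and rose by 0.42 ± 0.04 (adjusted p = 3.3e-13), while NPC1, its membrane partner, rose by 0.12 ± 0.04. NEU1, a sialidase, rose by 0.38 ± 0.05. GPNMB, a glycoprotein raised by lysosomal stress, rose by 0.91 ± 0.13, with 1.07 to 2.82 TPM against control means of at most 1.15 TPM. The member that fell was TFE3, a transcription factor of lysosomal genes, by 0.11 ± 0.04.

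The E-box TCACGTGA, the palindrome through which TFE3 and TFEB act, was found in 4 of 17 lysosomal promoters (23.5%) and in 1.04% of all promoters. The 4 were LAMP1, ATP6V0D1, MCOLN1 and CTSA. CTSA, the protective protein of lysosomal galactosidase, is shown for its exact match in capitals, from chr20:45891284-45891341 (GRCh38.p14, plus strand).
CTSA: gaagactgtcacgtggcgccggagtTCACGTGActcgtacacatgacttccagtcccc
Of these 4, CTSA, LAMP1 and ATP6V0D1 rose early, by 0.21 ± 0.06, 0.09 ± 0.03 and 0.14 ± 0.03. In autophagy, 3 of 10 genes rose (SQSTM1, WIPI1, TP53INP1) and NBR1 fell. Of 11 thyroid hormone genes tested, 0 rose and 1 fell early (NRGN, by 0.26 ± 0.07), shares near those of all genes (4.23% and 9.57%). Of the channels and receptors that the drug blocks, 7 were tested. The summed level of their list was below every control on 1 of 5 early days and above every control on 0. KCNH2, the hERG potassium channel, fell by 0.15 ± 0.06 early, in a window where 9.57% of all genes fell. It is 1 gene named from the 7.

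Matrix and mesenchymal genes were among the largest early rises: COL6A3, BGN, DCN, ISLR and LUM, 5 of the 12 largest, are in the list. Of 17 markers, 14 rose, with a median of 0.69, and the other 3 were above 0. Across all genes 4.23% rose in this window. COL6A3, a chain of collagen VI, was at 147.5, 71.9, 94.8, 36.9 and 29.6 TPM, against means of 80.1, 42.4, 30.2, 13.3 and 9.56 TPM. It was above every control on 5 of 5 days and rose by 1.25 ± 0.09 (adjusted p = 1.4e-18). ISLR, a secreted leucine-rich repeat protein of mesenchymal stroma, was at 77.2, 34.5, 43.5, 18 and 9 TPM. Its control means were 53.7, 27.6, 15.2, 6.27 and 3.73 TPM, only day 2 overlapped, and it rose by 0.97 ± 0.14 (adjusted p = 7.87e-08). IGFBP7, ITGA11 and BGN rose by 1.19 ± 0.15, 1.10 ± 0.09 and 1.12 ± 0.10.

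Among other genes of the 12 largest early rises were PTGDS, the brain prostaglandin D synthase, at 1.22 ± 0.23, and the pigment cell protein PMEL, at 1.05 ± 0.15. In bulk RNA, more mesenchymal cells and more RNA of these genes in each cell cannot be told apart. The summed level of the 17 markers fell from 4268 TPM on day 1 to 1214 TPM on day 6 under Amiodarone, and from a mean of 3094 to 852 TPM in the controls. It was above the highest control on 5 of 5 early days, by the least on day 2 (2337 against 2324 TPM). The decline did not last: in the late window the sum ran from 1220 to 11830 TPM under Amiodarone. Single control libraries of that window ran from 255.1 to 10610 TPM. The Amiodarone sum was above the highest control on 2 of the 6 late days. COL1A1, COL3A1, DCN and LUM, which define such cells, were all detected in both groups. The list also moved among the controls: in DMSO against the other non-toxic compounds in days 1 to 6, 4 of the 17 fell, COL1A1 and COL3A1 among them (-0.28 ± 0.07 and -0.27 ± 0.07). In that comparison 1.13% of all genes were called.

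Late, the number of mesenchymal genes called depended on the days and controls. ISLR was at 12.9, 15.6, 66.4 and 69.2 TPM on days 8, 10, 27 and 39, against means of 6.72, 6.20, 37.7 and 65.9 TPM. It was above every control on days 10 and 27 only, and its difference of 0.78 ± 0.21 was not called (adjusted p = 0.0868). Without the Ibuprofen compound it was called, at 0.77 (adjusted p = 0.0227). With days 15 and 21, where it was at 31.2 and 73.5 TPM against 12.3 and 23.4 TPM, it rose by 1.01 ± 0.17 (adjusted p = 3.42e-05). Of the 17 markers, 5 rose over the 6 late days and only OGN, a small matrix proteoglycan, without days 15 and 21 (0.85 ± 0.17), a call lost without day 10 (0.67). Leaving out Ibuprofen raised that count from 1 to 8 of 17. Calls over all genes rose in that fit as well, by the counts given with the length trend. The shares that follow are therefore no background for these 8. With Ibuprofen kept, 6.32% of all genes rose over the 6 late days and 0.331% without days 15 and 21. Over the 9 days without days 15 and 21, ISLR rose by 0.89 ± 0.12, FDPS by 0.38 ± 0.03 and MVD by 0.42 ± 0.07. In that fit 1.97% of all genes rose and 1.13% fell. Over all 11 days these 3 rose by 0.99, 0.40 and 0.50, where 6.05% of all genes rose and 20.3% fell.

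**Figure D4:**
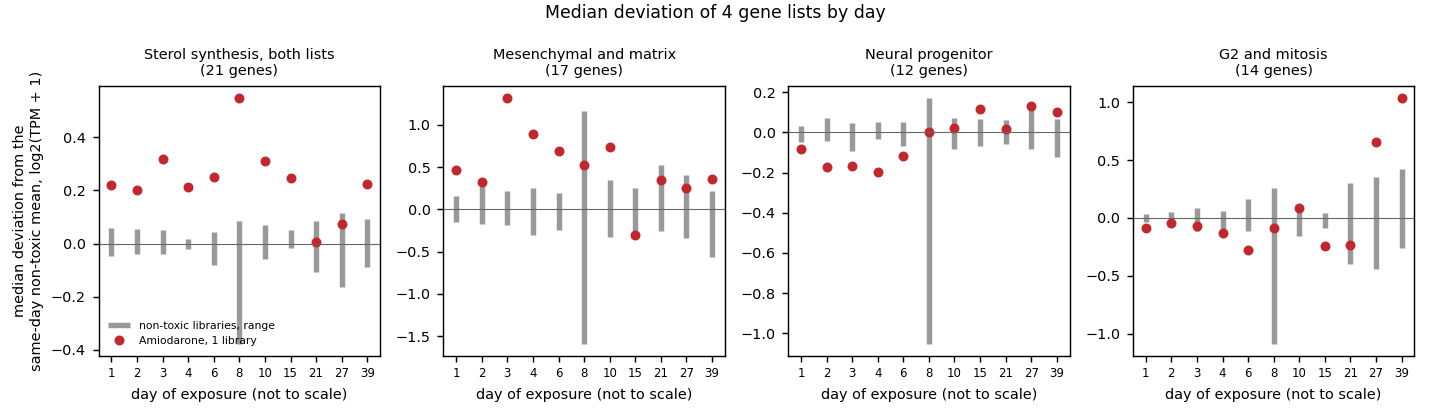
Median over the genes of 4 lists of the log2(TPM + 1) difference from the mean of that day's controls, by day of exposure; red points are Amiodarone and grey bars the range of the single non-toxic libraries. Sterol genes lie above the bars on 9 of 11 days, mesenchymal genes reach 1.32 on day 3, and mitotic genes lie above the bars on days 27 and 39.

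Neural progenitor and cell cycle genes were lower in the early window. Of 12 progenitor markers, 10 fell and 1 rose, with a median of -0.15. PAX6, a transcription factor of neural progenitors, was at 4.2, 8.41, 9.46, 10.9 and 13.8 TPM, against means of 7.20, 9.74, 12.3, 14.9 and 14.4 TPM. It was below every control on 4 of 5 days, with day 6 inside the range, and fell by 0.33 ± 0.06 (adjusted p = 1.5e-05). SOX2 fell by 0.16 ± 0.03 and NES, the progenitor filament nestin, by 0.15 ± 0.02. FABP7, the fatty acid binding protein of radial glia, went the other way, by 0.26 ± 0.05 early and 0.47 ± 0.08 late without days 15 and 21. NES also moved among the controls. In DMSO against the other non-toxic compounds in days 1 to 6, limma called it lower (-0.08 ± 0.02, adjusted p = 0.0342). SOX2 (-0.01 ± 0.03) and PAX6 (-0.12 ± 0.05) were not called there. Of 14 S phase genes 9 fell, and of 14 genes of G2 and mitosis 8 fell, with no rise in either list. These lists and the progenitor markers stand beside 9.57% of all genes that fell early and 4.23% that rose. CCNA2, cyclin A2, was at 97.5, 97.0, 76.0, 61.6 and 35.4 TPM, against means of 125, 108, 88.9, 75.7 and 46.3 TPM. It was below every control on 5 of 5 days and fell by 0.28 ± 0.03 (adjusted p = 1.4e-09). The mesenchymal list, with its higher summed level on the same 5 days, moved opposite to these lists; its part in the falls was not tested.

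The windows differed for part of the cell cycle genes. The late minus early difference without days 15 and 21 was above 0 and called for 6 of 14 S phase and 7 of 14 mitotic genes, with none below 0. Across all genes 1.42% were called higher and 0.484% lower, and with days 15 and 21 these shares were 5.81% and 11.8%. CCNA2 differed by 0.78 ± 0.13 (adjusted p = 4.69e-05), CDK1, the mitotic kinase, by 0.59 ± 0.10. Of the 12 progenitor markers 2 were called in this contrast, PAX6 (0.68 ± 0.15) and HMGA2 (0.91), while SOX2 (0.25) and NES (0.03) were not. No gene of the 2 cell cycle lists was called in the late window by itself without those days by limma; without Ibuprofen CCNA2 was (0.47, adjusted p = 0.0216). CCNA2 stood at 28, 23.5, 40.2 and 19.6 TPM on days 8, 10, 27 and 39, against means of 25.6, 20.9, 26.6 and 9.05 TPM. It was above every control on the last 3 of these days.

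The largest early fall by name was of GNG8, a G protein gamma subunit, at -1.29 ± 0.46 (adjusted p = 0.0477). Its wells did not share a direction beyond the controls: it was listed at 0 TPM on days 1, 2 and 6, at 3.66 TPM on day 3 and at 20.5 TPM on day 4, the last above the highest control of 12.1 TPM. RSPO1, a secreted activator of Wnt signalling, was at 3.67, 2.78, 3.51, 4.59 and 6.42 TPM, against 4.09, 4.47, 9.11, 10.6 and 9.91 TPM. It was below every control on 4 of 5 days and fell by 0.67 ± 0.10 (adjusted p = 3.02e-07). TKTL1, a transketolase-like gene, fell by 0.54 ± 0.05, TXNIP, the thioredoxin-binding protein raised by glucose, by 0.49 ± 0.07, and CYP26C1, which degrades retinoic acid, by 0.46 ± 0.07. ACSL6, a long-chain acyl-CoA synthetase, fell by 0.43 ± 0.06 and was below every control on 5 of 5 days.

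Over the 6 late days the 3 largest rises by name were HIST1H4E (1.32 ± 0.34), TEX101 (1.24 ± 0.34) and CDR1 (1.12 ± 0.26). HIST1H4E is a histone gene with near-identical copies, so its value is uncertain. Without days 15 and 21 these 3 were at 0.80 ± 0.40, 0.33 ± 0.37 and 0.41 ± 0.31, and none was called. EMX1, LHX2 and FEZF2 were also among the 12 largest, and NEUROG1, outside the 12, was named for its difference between windows. The next values of LHX2 and NEUROG1 are from the fit without days 15 and 21. LHX2, a cortical selector, stood at 41.2 and 88.7 TPM on days 27 and 39, against ranges of 1.37 to 14.2 and 3.59 to 38.8 TPM, and rose by 1.45 ± 0.36 (adjusted p = 0.0415). NEUROG1, a proneural factor, stood at 9.38 and 9.39 TPM on those days, against highest controls of 3.07 and 4.01 TPM, and rose by 1.18 ± 0.25 (adjusted p = 0.00895).

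EMX1 and FEZF2, both of the dorsal forebrain, rose over the 6 late days and were at 1.33 ± 0.35 and 1.29 ± 0.33 without days 15 and 21 (adjusted p = 0.0689 and 0.0566), both called without Ibuprofen (1.31 and 1.25). These 4 differed between windows without those days, LHX2 by 1.59 (adjusted p = 0.000537) and EMX1 by 1.37 (adjusted p = 0.00781). These rises rest on the wells of days 27 and 39. Without day 39, LHX2 was at 0.99 and NEUROG1 at 0.88, and without day 27 at 1.06 and 0.87, neither of them called. The same 2 days had the highest medians of the mitotic list.

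Falls of the late window that held without days 15 and 21 included 2 genes of neuronal function. TH, tyrosine hydroxylase, the first enzyme of dopamine synthesis, was at 2.19, 3.06, 2.36 and 2.37 TPM on days 8, 10, 27 and 39. The control means were 4.61, 10.7, 11.6 and 6.80 TPM, with no overlap on any of these days, and TH fell by 1.34 ± 0.16 (adjusted p = 1.79e-07). On days 15 and 21 it was at 4.63 and 4.03 TPM against 15.5 and 16.9 TPM. Early it was at -0.14 ± 0.13, and the windows differed by -1.20 ± 0.20 (adjusted p = 4.69e-05). VGF, a neuropeptide precursor of active neurons, was at 57.9, 79.7, 26.8 and 13.4 TPM, against means of 91.1, 163, 78.3 and 24.4 TPM. It was below every control on 4 of 4 days and fell by 0.99 ± 0.11 (adjusted p = 5.54e-08).

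Both were called without any single one of these 4 days. FGF19, a secreted fibroblast growth factor, rose with time in the controls to a mean of 64.5 TPM on day 27, and was at 32.1 TPM under Amiodarone that day. It was below every control on days 10, 27 and 39, and fell by 0.80 ± 0.12 (adjusted p = 6.09e-05). PTF1A, the factor of hindbrain and spinal inhibitory neurons, fell early by 0.33 ± 0.09 and late by 0.52 ± 0.12, the latter not called without day 10, 27 or 39 (-0.50, -0.51 and -0.50). VGF, FGF19 and PTF1A were chosen after their values were seen, as were SCD, FADS2, ACSS2 and ABCG1 among lipid genes.

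**Figure D5:**
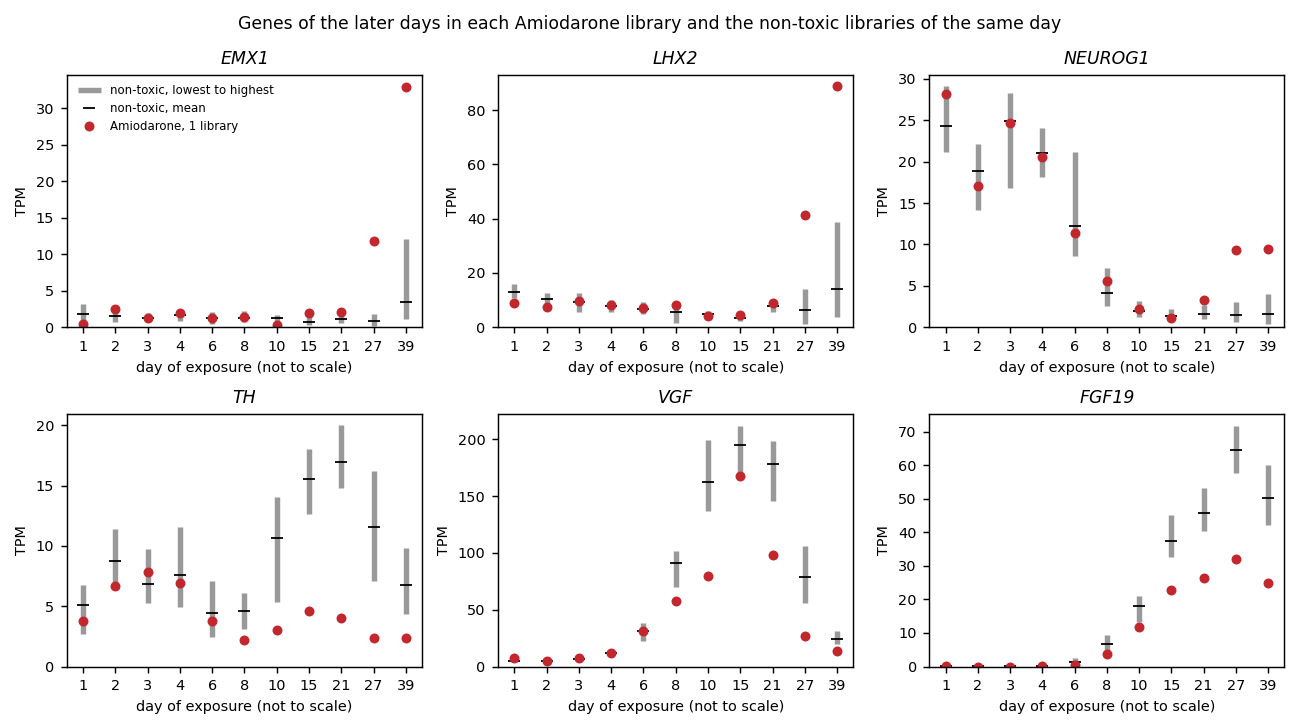
TPM by day of exposure for 6 genes of the late window: red points are the single Amiodarone library of each day, grey bars run from the lowest to the highest non-toxic library, and black dashes are the non-toxic mean. EMX1, LHX2 and NEUROG1 lie above the controls on days 27 and 39, while TH lies below them on every day from day 8 on.

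Neuronal sodium channel genes fell over the 6 late days and were not called in the fit without days 15 and 21. Of 8 sodium channel genes, 7 fell over the 6 late days (median -0.46) and 0 without days 15 and 21 by limma (median -0.20). SCN2A, the channel of excitatory axons, was at 15.4 and 18.4 TPM on days 15 and 21, against means of 35.3 and 65.7 TPM. On days 8, 10 and 27 it was inside the control range, and on day 39 it was at 32.4 TPM, below the lowest control of 44.8 TPM. Of 7 GABA genes, 3 fell over the 6 late days and 0 without days 15 and 21. Across all genes, 16.5% fell over the 6 late days and 0.141% without days 15 and 21. Genes that fell over the 6 late days had a median transcript length of 5482 nucleotides, against 3538 for all genes tested. GAD1, which makes GABA, was at 111, 209 and 259.5 TPM on days 10, 27 and 39, below every control of those days (lowest 113, 259.5 and 341.5 TPM), with a difference of -0.39 ± 0.12 (adjusted p = 0.17). Its late minus early difference without days 15 and 21 was called by limma, at -0.47 ± 0.13 (adjusted p = 0.0319). In that contrast 0.484% of all genes were called lower. Among the largest late falls, SYN3, a synapsin, went from -1.17 ± 0.24 to -0.60 ± 0.32 without days 15 and 21, and PAK3, a neuronal kinase, from -1.11 ± 0.31 to -0.28 ± 0.38. Neither was called without those days.

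The stress lists are read against the early shares over all genes, 4.23% that rose and 9.57% that fell. Early, 3 of 14 ATF4 genes rose (DDIT3, TRIB3, NUPR1) and 2 fell, 2 of 11 endoplasmic reticulum chaperone genes fell, HSPA5 by 0.12 ± 0.02 among them, and 2 of 12 p53 targets rose. Of 10 NRF2 targets only FTL, ferritin light chain, rose early, by 0.35 ± 0.02. Late without days 15 and 21, these 4 lists had 0 calls by limma, where 0.331% of all genes rose and 0.141% fell. Of 12 hypoxia genes, CA9, a carbonic anhydrase, was the 1 called there, at 0.73 ± 0.18.

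Set beside the other toxic compounds, Amiodarone was near the top for sterol genes. Of 28 toxic compounds with at least 3 early libraries, its mean median deviation of the 21 sterol genes, 0.24, came second to Dexamethasone at 1.00, and the median of the others was -0.12. Late without days 15 and 21 it had rank 3 of 21, at 0.29, with Dexamethasone at 1.32. For ABCG1 the 2 compounds stood apart: Amiodarone was at 0.89 early and Dexamethasone, the lowest, at -1.36. For the mesenchymal list Amiodarone came eighth of 28 early, at 0.74, with Arsenic highest at 2.77. For LHX2 it had rank 3 of 21 late without days 15 and 21, at 1.45, with PD166866 highest at 2.08. No gene passed limma in Amiodarone against the other toxic compounds, over all days or without days 15 and 21 (0% called in each, with 1 gene at an unadjusted p under 0.05 in each). In these fits libraries of the same compound were correlated at 0.533 and 0.539, against 0.011 over all days with the non-toxic controls. With Amiodarone a single compound, such a test could call little, so the lack of calls does not show likeness to the other toxic compounds. So none of these positions is a tested difference. DMSO against the other non-toxic compounds was fitted the same way. Over all days 0.0735% of genes were called, 1.13% in days 1 to 6 and 0% late without days 15 and 21. The last of these fits had 448 genes at an unadjusted p under 0.05.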

How the data were processed

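Gene expression of H1-NPC wells was measured by RNA-seq. The authors deposited 1 table of TPM, a length-corrected share of each library, for all libraries. Per the submitters' processing notes, CASAVA 1.8.2, Bowtie 0.12.8, RSEM 1.2.1 and build hg19 were used. Read counts are not used here, so depth is unknown and no counting intervals are given. Of 19084 genes, the 16318 that reached 1 TPM in 5 or more libraries were kept. They were fitted with limma 3.58.1 (R 4.3.3) on log2(TPM + 1), a pseudocount of 1, with an intensity trend, a term for each day, and libraries of a compound as a random block. Benjamini-Hochberg adjustment ran over all genes tested, and the procedure was tested on simulated data.

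Groups come from the compound labels. Members and gene lists were chosen with earlier results of these data known. Genes named by size were the 12 largest rises and falls among called genes, 6 for the difference between windows. Each had to average 5 TPM or more in 1 of the groups. Those not named for the window difference also had to keep their sign on 80% or more of the days. Genes named within lists, and others, were chosen after their values were seen. So were the motifs CCAAT and CACNCCA, which were searched on both strands, and the fits without days 15 and 21 of the window difference and of the other toxic compounds. Transcript lengths were the longest GENCODE 29 transcript, found for 93.1% of the genes averaging 10 TPM or more. Promoters are RefSeq's, on GRCh38.p14, and were read apart from the hg19 values. Alternatives were other pseudocounts, filters, scalings, controls and covariates, and leaving out each Amiodarone library. Some genes of the lists are counted but not reported here by name.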

Additional observations from a re-analysis of the deposited data

Results flagged for a closer look

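Among 113 pairs of window and called gene, drawn from 83 genes, 1 library stood far from the others of its window: INSIG1 on day 3 deviated by 0.57, with the other early days between 0.41 and 0.45. Chance marks about 1 in 20 such groups.

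Without days 15 and 21, limma's test called the late minus early difference above 0 for 1.42% of all genes and below 0 for 0.484%. For 13 of these genes, not all of them, the late difference from the controls is set against the early one. It was higher late for LHX2 (1.59, adjusted p = 0.000537), EMX1 (1.37, adjusted p = 0.00781), EOMES (1.32, adjusted p = 0.0115), FEZF2 (1.31, adjusted p = 0.00667) and NEUROG1 (1.18, adjusted p = 0.000377). The same held for CCNA2 (0.78, adjusted p = 4.69e-05) and PAX6 (0.68, adjusted p = 0.00274). It was lower late for TH (-1.2, adjusted p = 4.69e-05), VGF (-1.11, adjusted p = 2.31e-07), IGFBP7 (-1.03, adjusted p = 0.0157) and APOE (-0.83, adjusted p = 0.00227). FGF3, a fibroblast growth factor (-0.69, adjusted p = 0.000986), and FGF19 (-0.57, adjusted p = 0.0356) were lower late as well.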

How the results depend on the processing

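Counts of called genes depended on the controls and days. Over all days 4306 genes were called, 94 with DMSO as the only control, 2673 with the length trend as a covariate, 7071 without Ibuprofen and 7238 without control libraries of a length trend below -0.1. Early there were 2251, and 0 with DMSO alone by limma. Late there were 3729, 0 with DMSO alone, 7733 without Ibuprofen and 7936 without those control libraries. Without days 15 and 21 the 505 calls became 1410 with the covariate, 1925 without Ibuprofen and 2259 without those libraries. Late without days 15 and 21 the 77 became 775, 795 and 1108, and 153 with libraries centred on their median. The window difference went from 2871 to 6070 without Ibuprofen, 6304 without those libraries and 310 without days 15 and 21. Leaving out 1 Amiodarone library gave 1052 to 5316 over all days, 1350 (without day 4) to 2600 early, 440 (without day 21) to 5533 late, 31 (without day 27) to 110 late without days 15 and 21, and 680 to 4650 for the window difference. The cause was not tested. Centring turned the split of rises and falls to 2390 and 2130 over all days, 999 and 936 early, and 2311 and 2233 late; with the covariate it was 2088 and 585, 833 and 1333, and 2723 and 655. Late differences that turned positive with the covariate were SQLE (0.2221), CYP51A1 (0.1992), SC5DL (0.1441), SREBF2 (0.2759), MBTPS1 (0.139), STARD4 (0.2145) and VLDLR (0.0029). Without compound as a random block (no replicate block), 5050 genes were called over all days, 2627 early, 4284 late, 691 without days 15 and 21 and 109 late without them. Samples of the same number in different compounds are separate wells and were not paired. Depth is unknown, so its limit on low genes cannot be given.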
